A study of Mus musculus with 6 samples.

Results

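The genes described here encode the proteasome, and they were taken as every gene of the array whose only platform symbol begins with Psm, a letter from a to g and a number. This gave 103 probe sets of 49 genes, out of 45101 probe sets and 18194 genes with a single symbol in the table. Each gene was represented by its brightest probe set, the one with the highest mean log2(signal + 16) over all arrays. By role, 19 genes belong to the 20S core, 20 to the 19S regulatory particle with its assembly chaperones, and 8 to activators, an inhibitor and core assembly chaperones. The other 2, Psmc3ip, a meiotic recombination factor, and Psme3ip1, a binding partner of Psme3, match the pattern but are no subunits, and they are kept apart below. A probe set shared by Psme2 and Psme2b carries both symbols and was left out.

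The proteasome is the protease complex that degrades proteins marked with ubiquitin in the cytosol and nucleus. Its 20S core is a barrel of stacked rings, in which alpha subunits (Psma) form the gated ends and beta subunits (Psmb) the inner rings, with Psmb5, Psmb6 and Psmb7 as the protease subunits of most tissues. The 19S particle caps the barrel: its ATPases (Psmc) unfold the substrate, and its non-ATPase subunits (Psmd) bind ubiquitin chains and remove them. In muscle, proteasomes take part in the turnover of sarcomere proteins.

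Ventricles of mouse embryos were compared at stage E11.5: 3 arrays held RNA of embryos with a targeted skNAC deletion, named here knockout 1, 26 and 66, and 3 held RNA of wild-type littermates, named wild-type 13, 23 and 57. skNAC is the long, muscle-specific form of the nascent polypeptide-associated complex alpha subunit gene, Naca. The strain is given as 129SvEv for both genotypes, and no treatment is named for either. Litters are not numbered in the labels and neither is the number of hearts behind an array, so p-values measure the spread between these samples, which may in part be technical.

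Values are MAS5 signals on a linear scale, each array scaled by the authors to a trimmed mean of 250, with array medians between 92.0 and 113.9. Naca read 9047, 9034 and 8595 in knockout 1, 26 and 66, against 8385, 8566 and 8286 in wild-type 13, 23 and 57, a log2 difference of 0.08 ± 0.08 (SE, adjusted p = 0.975 in limma over probe sets). Which part of Naca that probe set reads was not looked up here, so the probe set checks no label. Knockout 66 stood apart: across kept probe sets its Pearson correlation with the other arrays was 0.928 to 0.940, while the highest correlation of each other array was 0.966 or more. The 3' to 5' signal ratio of actin was 2.57, 2.49 and 2.56 in knockout arrays and 2.13, 2.24 and 2.05 in wild-type arrays. That of Gapdh was 1.33, 1.28 and 1.45 in knockout arrays and 1.20, 1.12 and 1.18 in wild-type arrays. On both ratios every knockout array lay above every wild-type array, so RNA quality and genotype cannot be told apart by them. The part of RNA quality in the results below was not tested. Heart muscle was borne out by its markers: all 12 listed genes of ventricular cardiomyocytes were above the level at which probe sets were kept, with Myl2, the ventricular myosin light chain, between 18174 and 25534. No list of atrial genes was looked at, so ventricle against whole heart was not tested. In whole ventricles, fewer cells of a type and less RNA per cell cannot be told apart.

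Promoters of the proteasome genes are shown for the element of the transcription factor Nfe2l1, which raises proteasome genes together when proteasome activity is low. A RefSeq promoter of the GRCm38.p6 build (250 bases before and 50 after the start site) was found for 41 of the 49 genes. The letters TGACNNNGC, an antioxidant response element to which Nfe2l1 and Nfe2l2 bind, were searched on both strands. They occurred in 6 of the 41 genes (14.6%), against 3781 of 27025 genes in the whole table (14.0%), so the share among proteasome genes was near that of all genes. The 4 promoters with a match nearest to the start site are those of Psmb5 (chr14:54617946-54618245, minus strand), Psmb6 (chr11:70525107-70525406, plus strand), Psmd9 (chr5:123227940-123228239, plus strand) and Psme4 (chr11:30771525-30771824, plus strand). They are shown because they pair members of different particles whose signals are given below. Capitals mark the motif, which starts at -47, -9, -31 and -7 from the start site. In Psmd9 a second capital stretch, at -159, is GAAA, any 2 bases and GAAA again, the core of the interferon-stimulated response element.
Psmb5: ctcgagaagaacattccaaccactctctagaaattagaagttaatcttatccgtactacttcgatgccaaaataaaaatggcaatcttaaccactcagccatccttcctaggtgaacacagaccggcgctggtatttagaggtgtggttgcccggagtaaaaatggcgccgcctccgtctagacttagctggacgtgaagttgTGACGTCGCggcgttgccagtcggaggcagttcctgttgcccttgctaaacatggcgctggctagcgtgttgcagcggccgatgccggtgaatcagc
Psmb6: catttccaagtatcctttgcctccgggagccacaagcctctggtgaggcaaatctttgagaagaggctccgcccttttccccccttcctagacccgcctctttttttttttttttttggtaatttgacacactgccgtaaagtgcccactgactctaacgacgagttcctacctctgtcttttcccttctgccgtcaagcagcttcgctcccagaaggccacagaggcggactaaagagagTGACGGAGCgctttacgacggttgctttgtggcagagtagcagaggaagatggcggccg
Psmd9: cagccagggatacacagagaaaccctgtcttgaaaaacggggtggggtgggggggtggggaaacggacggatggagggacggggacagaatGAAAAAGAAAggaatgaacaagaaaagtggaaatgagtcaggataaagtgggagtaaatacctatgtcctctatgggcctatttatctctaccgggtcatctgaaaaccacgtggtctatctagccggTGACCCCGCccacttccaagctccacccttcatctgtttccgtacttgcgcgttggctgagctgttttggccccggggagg
Psme4: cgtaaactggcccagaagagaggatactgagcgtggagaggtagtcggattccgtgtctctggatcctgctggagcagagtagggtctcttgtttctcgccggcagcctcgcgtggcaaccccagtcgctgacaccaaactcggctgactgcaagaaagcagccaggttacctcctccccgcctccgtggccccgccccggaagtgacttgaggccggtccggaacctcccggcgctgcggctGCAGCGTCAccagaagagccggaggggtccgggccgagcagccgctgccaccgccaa

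This interferon element was found in 5 of the 41 genes (12.2%, against 4.0% of all genes): Psmb3, Psmd4, Psmd9, Psme1 and Psmg4. By particle it was in 1 of 15 core genes and 2 of 17 genes of the 19S particle. It was not found in the promoters of Psmb8, Psmb9 and Psmb10, the immune subunits. The 2 motifs marked in Psmd9 do not overlap. A match is a stretch of letters only.

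No proteasome gene passed the test between knockout and wild-type ventricles. Of the 49 genes, 45 passed the filter on dim probe sets, which asked for a mean over all 6 arrays above 95.2 on the linear scale. In limma with Benjamini-Hochberg adjustment over all 11661 genes, 0 of the 45 passed an adjusted p of 0.05, as did 0 of all genes (0.0%), and the smallest adjusted p among the 45 was 0.974. At an unadjusted p under 0.05 there were also 0 of 45, where 4.69% of all genes had one (2.18% higher and 2.51% lower in knockout). The knockout arrays lay wholly above the wild-type arrays in 2 genes, Psmb7 and Psmg1, and wholly below in 0, where 10.9% of all genes separated in either direction (5.4% higher and 5.45% lower in knockout). Log2 differences, knockout minus wild-type, ran from -0.35 in Psmd9 to 0.20 in Psmd6 over the 43 proteasome genes tested. Of these, 28 were above 0, with a median of 0.06, while over all genes 50.4% were above 0, with a median of 0.0023.

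**Figure D1:**
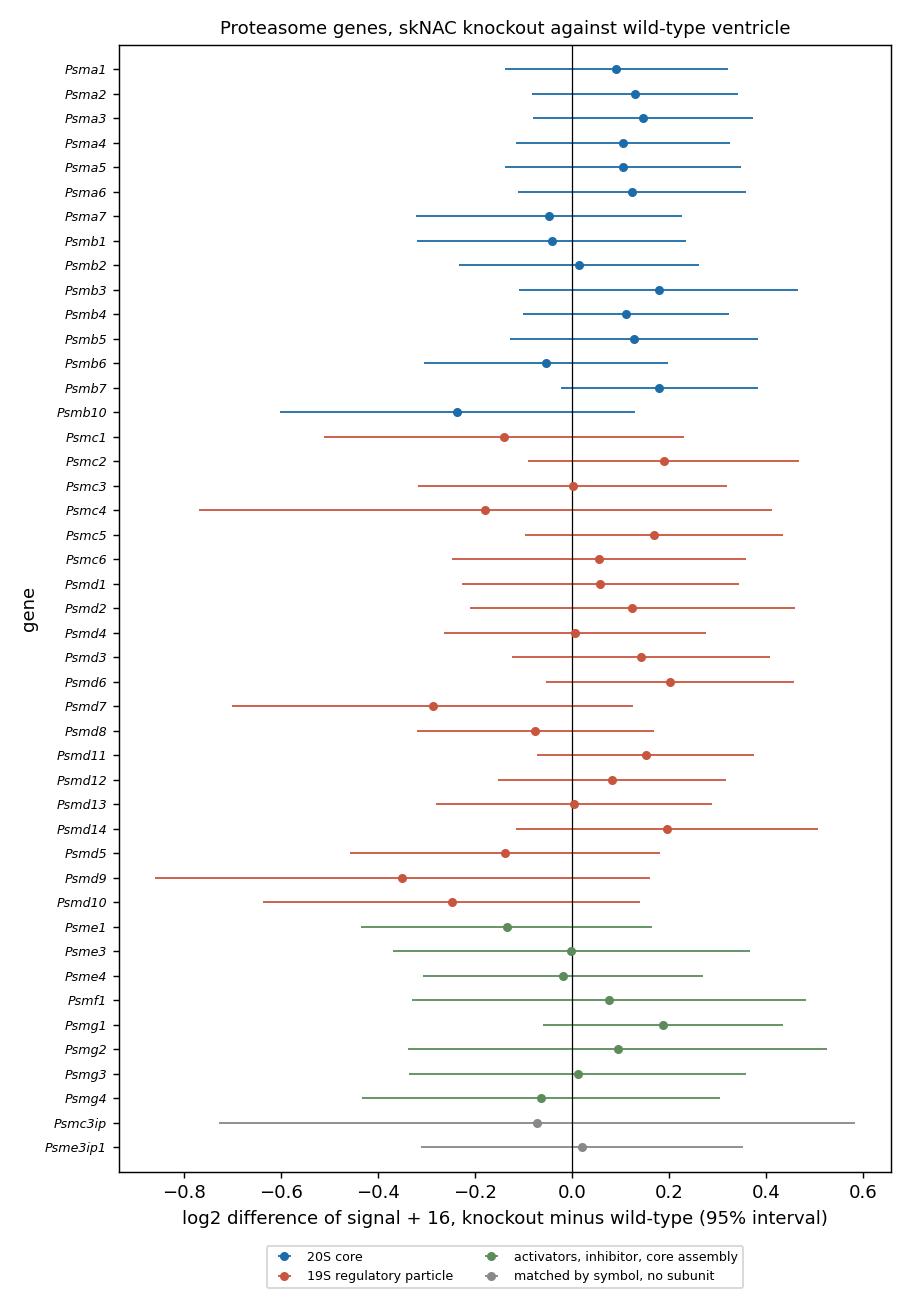
Log2 difference of signal + 16 (x axis, knockout minus wild-type) for each of the 45 tested genes (rows), with bars for the 95% interval of limma. All 45 intervals include 0, and points of the 20S core lie mostly a little right of 0.

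The 14 core subunits made in most tissues had small differences and narrow intervals. Of them, 11 were above 0, with a median log2 difference of 0.11, a ratio of 1.08. On the brightest probe sets, their 95% intervals all lay between ratios of 0.80 and 1.38. On those probe sets a difference beyond that range was outside the interval of every one of these genes. The median standard error was 0.11, against 0.19 over all genes. These genes are bright, and all 14 fell in the brightest decile of the genes tested. That decile as a whole had a median of 0.04, with 64.7% of its 1166 genes above 0. After quantile normalization, which gives all arrays 1 distribution, the median of the 15 tested core genes was 0.06, against 0.11 with the authors' scaling. Other kept probe sets of core genes had log2 differences from -0.30 (Psma6) to 0.34 (Psma1), so the range of ratios above holds for the brightest probe sets only.

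Alpha ring subunits, which form the outer rings and the gate, gave values within that range. Psma3 read 4902, 4733 and 4236 in knockout 1, 26 and 66, against 4394, 4379 and 3769 in wild-type 13, 23 and 57, a log2 difference of 0.15 ± 0.10 (SE). Psma2 read 3640 (3639.6), 3275 and 3594 in knockout, against 3267.5, 3315 and 3021 in wild-type (0.13 ± 0.10). In both genes the genotypes overlapped, and wild-type 57 was the lowest array. Psma1, Psma4, Psma5 and Psma6 lay between 0.09 and 0.12, and Psma7 was at -0.05. Psma8, an alpha subunit of the testis, was below the filter, with 79.0, 84.5 and 11 in knockout and 95.9, 65.9 and 67.0 in wild-type.

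The protease subunits of most tissues had log2 differences on both sides of 0. Psmb7, the trypsin-like subunit, read 5769, 5468 and 5574 in knockout 1, 26 and 66, against 5163.5, 5152 and 4547 in wild-type 13, 23 and 57. All its knockout arrays lay above all its wild-type arrays, with a mean of 5604 ± 153 (SD, n = 3) in knockout and 4954 ± 353 in wild-type. Psmb7 differed by 0.18 ± 0.09 on the log2 scale (95% interval -0.02 to 0.38, adjusted p = 0.974 in limma). Psmb5, the chymotrypsin-like subunit, read 1926.8, 1927.5 and 1684 in knockout, against 1817, 1750.1 and 1508 in wild-type (0.13 ± 0.12). Psmb6, the caspase-like subunit, read 2197, 2158 and 1911 in knockout, against 2308, 2284 and 1926 in wild-type (-0.05 ± 0.11). The genotypes overlapped in Psmb5 and Psmb6, whose promoters both hold the antioxidant response element shown above. The inner ring subunits without protease activity gave -0.04 for Psmb1, 0.01 for Psmb2, 0.18 for Psmb3 and 0.11 for Psmb4.

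The subunits that replace them in immune cells and after interferon were dim or not called. Psmb8 read 20.7, 13.1 and 56.1 in knockout, against 4.9, 6.5 and 17.4 in wild-type, and Psmb9 read 8.0, 68.5 and 24.8, against 48.7, 5.6 and 4.4. Both were below the filter, so no fold is given. Psmb11, the thymic form, was below it too, between 24.6 and 119.2. Psmb10, the third immune subunit, was measured: it read 244.4, 318.4 and 285.6 in knockout, against 357.1, 336.7 and 310.7 in wild-type (-0.24 ± 0.17 on the log2 scale, 95% interval -0.60 to 0.13). Its groups overlapped by a single pair, knockout 26 above wild-type 57. Of 12 listed markers of blood and immune cells 5 passed the filter, 4 of them below 0, at a median of -0.22 and with 0 past an adjusted p of 0.05. The 12 summed to 2391 to 2561 in knockout arrays and 2404 to 2692 in wild-type arrays, and none of the 12 had a signal under 1. Their part in the Psmb10 value was not tested. Listed genes of interferon response and antigen presentation, 8 of 14 above the filter, had a median of 0.02, with Irf1, an interferon-induced factor, at 0.28 ± 0.29 and H2-D1, a class I antigen-presenting molecule, at -0.41 ± 0.32.

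**Figure D2:**
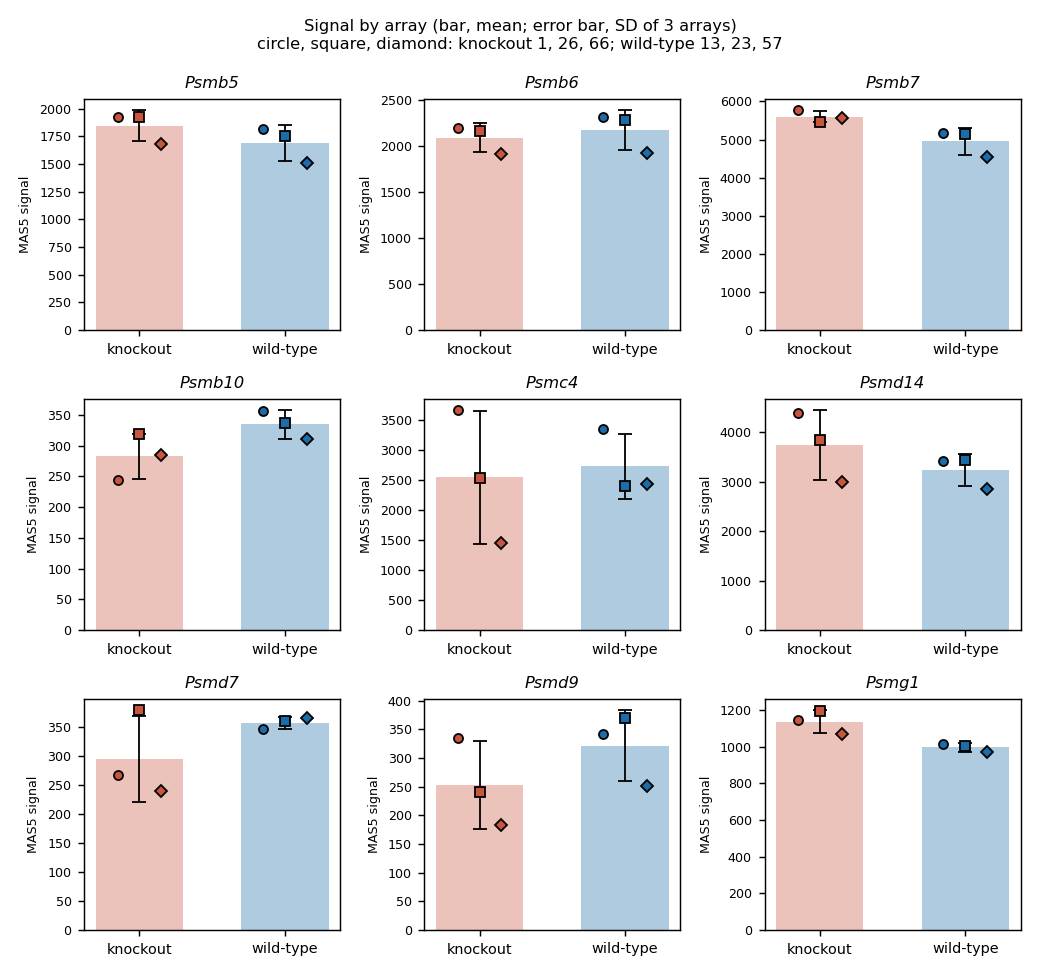
MAS5 signal (y axis, linear, from 0) of 9 proteasome genes in knockout and wild-type ventricles, with points for arrays, bars for means and error bars for the SD of 3 arrays. Psmb7 and Psmg1 show no overlap between genotypes, and the spread of Psmc4 among knockout arrays exceeds the difference between means.

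The 19S particle had log2 differences on both sides of 0. Of its 20 genes, all above the filter, 13 were above 0, at a median log2 difference of 0.03 and a median standard error of 0.13. The 17 subunits of base and lid had 13 above 0 and a median of 0.06. The median of the 20 changed sign when single arrays were left out, from -0.02 without knockout 1, -0.0043 without knockout 26 and -0.0044 without wild-type 57 up to 0.16 without knockout 66.

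Among the ATPases, which form the ring that unfolds substrates, Psmc2 read 4291.5, 4565 and 3450 (3449.7) in knockout 1, 26 and 66, against 3870.4, 3746 and 3145.5 in wild-type 13, 23 and 57 (0.19 ± 0.13). Psmc5 read 2428, 2492 and 2251 in knockout, against 2474.5, 2073 and 1864 in wild-type (0.17 ± 0.12). Both overlapped between genotypes. Psmc4 had the widest spread of the ATPases: 3665.5, 2534 and 1444 in knockout, against 3346, 2394 and 2441 in wild-type (-0.18 ± 0.27). Its second probe set was less spread, at 1301.6, 1203 and 888 in knockout and 1150.1, 1069 and 997 in wild-type, a difference of 0.06. Psmc1 was at -0.14, Psmc3 at 0.00071 and Psmc6 at 0.06.

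In the base and lid, Psmd14, the enzyme that cuts ubiquitin chains off the substrate, read 4391, 3844 and 2989 in knockout 1, 26 and 66, against 3416, 3441 and 2858 in wild-type 13, 23 and 57 (0.19 ± 0.14). Knockout 1 and 26 lay above every wild-type array, and knockout 66 lay within their range. Without knockout 66 the difference was 0.35, at an unadjusted p of 0.0104 and an adjusted p of 0.559 in limma, and it was 0.07 without knockout 1 and 0.11 without wild-type 57. Psmd6 behaved alike, with 2677, 2593 and 2229 in knockout, against 2114, 2410.3 and 1988.5 in wild-type (0.20 ± 0.12, the highest of all proteasome genes tested). Psmd4, a ubiquitin receptor, gave 0.0058 ± 0.12, from 1249, 1026 and 1011 in knockout and 1085, 1101 and 1072 in wild-type. Psmd7, which pairs with Psmd14 in the lid, read 266.5, 379.6 and 240.0 in knockout, against 346.5, 360.2 and 365.8 in wild-type (-0.29 ± 0.19). Knockout 1 and 66 were below all wild-type arrays of Psmd7 and knockout 26 above them, and the difference was -0.47 without knockout 26. The other base and lid genes were Psmd1 (0.06), Psmd2 (0.12), Psmd3 (0.14), Psmd8 (-0.08), Psmd11 (0.15), Psmd12 (0.08) and Psmd13 (0.0033).

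The 3 chaperones that assemble the 19S base, Psmd5, Psmd9 and Psmd10, were all below 0. Of the base itself, 4 of 6 ATPases and 3 of 3 other subunits were above 0. The chaperones were dimmer, with a mean log2 signal of 8.1 to 9.3, against 9.8 to 11.9 in the base. Over all genes, 64.7% were above 0 in the brightest decile and 46.0% to 53.3% in the other deciles. The part of brightness in this contrast was not tested. Psmd9 read 334.3, 241.2 and 183.0 in knockout 1, 26 and 66, against 342.8, 370.7 and 251.9 in wild-type 13, 23 and 57, a log2 difference of -0.35 ± 0.23 (95% interval -0.86 to 0.16). A second probe set of Psmd9, dimmer, gave the same difference of -0.35, from 96.2, 108.5 and 166.8 in knockout and 163.6, 165.4 and 146.6 in wild-type. The genotypes overlapped on both, and the order of the knockout arrays was opposite between them: knockout 66 was lowest on the first and highest on the second. Psmd10, also known as gankyrin, read 260.9, 210.0 and 229.2 in knockout, against 316.6, 265.1 and 259.5 in wild-type (-0.25 ± 0.18), with knockout 1 above wild-type 57 as the one overlap. Psmd10 lies on chromosome X, and Xist, the transcript of the inactive X, read 466 in wild-type 57 and 6275 to 7481 in the other arrays. The Y-linked gene Eif2s3y read 166.5, 24.5 and 213.4 in knockout, against 2.1, 43.8 and 638.3 in wild-type, and Uty read 153.3, 37.9 and 150.5 in knockout, against 59.0, 49.0 and 399.5 in wild-type. Their part in the Psmd10 value was not tested. Psmd5 read 672, 637 and 504 in knockout, against 701, 649 and 638 in wild-type (-0.14 ± 0.15). None of the 3 passed, each with an adjusted p of 0.974 in limma.

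Activators, the inhibitor and the chaperones of core assembly gave 4 genes above 0 and 4 below, at a median of 0.0047. Psmg1, which with Psmg2 starts the assembly of the alpha ring, read 1143, 1196 and 1069.6 in knockout 1, 26 and 66, against 1013, 1003 and 969 in wild-type 13, 23 and 57. All knockout arrays of Psmg1 lay above all wild-type arrays, with a log2 difference of 0.19 ± 0.11 (95% interval -0.06 to 0.43) and an adjusted p of 0.974. Psme1, a subunit of the PA28 activator that interferon induces, read 2117, 1643.5 and 2062 in knockout, against 2248, 2339 and 1812 in wild-type (-0.14 ± 0.14). It was -0.02 without knockout 26 and -0.25 without wild-type 57. Psme3, the nuclear PA28 subunit, was at -0.0019, Psmf1, which encodes the inhibitor PI31, at 0.08, Psmg2 at 0.09, Psmg3 at 0.01 and Psmg4 at -0.06. Of the genes that are no subunits, Psmc3ip was at -0.07 ± 0.30 and Psme3ip1 at 0.02 ± 0.15.

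Psme4, which encodes the PA200 activator, had 3 kept probe sets that disagreed. The brightest read 1356, 1315.5 and 1710.0 in knockout 1, 26 and 66, against 1358, 1450.0 and 1612 in wild-type 13, 23 and 57 (-0.02 ± 0.13). The second read 1238, 1567 and 1244 in knockout, against 832, 1304 and 932 in wild-type, a difference of 0.41 with an unadjusted p of 0.0341 and an adjusted p of 0.975 over probe sets. The third read 339.0, 405 and 414 in knockout, against 423, 461 and 464.5 in wild-type (-0.22), with all knockout arrays below all wild-type arrays. The direction for Psme4 therefore depends on the probe set.

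Other probe sets of the proteasome genes gave mixed directions. Kept probe sets beyond the brightest existed for 21 of the 49 genes, 32 in all, and 13 of the 32 had the opposite sign of their gene's brightest probe set, in 12 genes. Of the 77 kept probe sets of the 49 genes, 66.2% were above 0, against 48.2% of all 22518 kept probe sets. Many of the 49 genes are bright, and in the brightest decile of the genes tested 64.7% were above 0. At an unadjusted p under 0.05 there were 2 of the 77, where 4.81% of all kept probe sets had one, and 0 at an adjusted p of 0.05 (0.0% of all). The first was the Psme4 probe set above. The other belonged to Psmd13, a lid subunit, and read 555, 495 and 569 in knockout, against 446, 369 and 452 in wild-type (0.35, unadjusted p = 0.0384, adjusted p = 0.975), while the brightest Psmd13 probe set read 528, 568 and 574 in knockout, against 533, 576 and 557 in wild-type. The name of the Psmd13 probe set at 0.35 ends in _x_at, which marks probes that can match other transcripts.

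**Figure D3:**
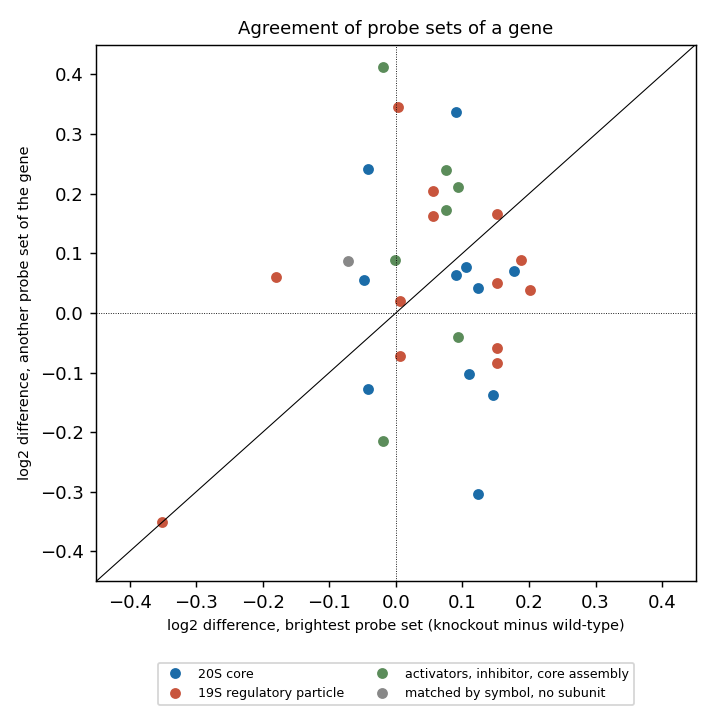
Log2 difference (knockout minus wild-type) of each of the 32 other kept probe sets (y axis) against that of the brightest probe set of the same gene (x axis), with the line of equality. In 13 of the 32 the signs differ, and the Psmd9 pair lies on the line at -0.35.

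Array by array, the core and the brightest genes as a whole deviated in similar steps. The mean deviation of the 15 core genes from their average over the 6 arrays was 0.08, 0.04 and -0.03 in knockout 1, 26 and 66, against 0.05, 0.01 and -0.16 in wild-type 13, 23 and 57, on the log2 scale. The brightest decile of all genes deviated by 0.08, 0.03 and -0.05 in the knockout arrays and by 0.03, 0.0078 and -0.10 in the wild-type arrays. In both, knockout 1 was highest and wild-type 57 lowest, with knockout 66 next to it. Wild-type 57 was the lowest array for 10 of the 15 core genes, and it was the lowest for 16.6% of all genes. After quantile normalization the core deviated by -0.0061, 0.02 and 0.03 in the knockout arrays and by 0.02, 0.0076 and -0.07 in the wild-type arrays. The 8 genes of the CCT chaperonin, which folds actin and tubulin, gave 0.13, 0.14 and -0.07 in the knockout arrays. In the wild-type arrays they gave 0.01, -0.02 and -0.18, and their median log2 difference was 0.09. In limma, 2 of the 8, Cct3 (0.46) and Cct4 (0.23), had an unadjusted p under 0.05, where 4.69% of all genes had one. Past an adjusted p of 0.05 there were 0 of the 8.

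The regulatory particle parted from the core in knockout 66. Its 20 genes deviated by 0.15, 0.07 and -0.22 in knockout 1, 26 and 66, against 0.08, 0.03 and -0.11 in wild-type 13, 23 and 57. Core minus regulatory particle was therefore -0.06, -0.02 and 0.18 in the knockout arrays, against -0.03, -0.02 and -0.05 in the wild-type arrays. The knockout mean was 0.03 ± 0.13 and the wild-type mean -0.03 ± 0.02 (SD, n = 3 each). Knockout 66 alone was above 0, and the genotypes overlapped. Knockout minus wild-type was 0.06, and it was -0.011 without knockout 66. After quantile normalization knockout 66 stood at 0.20, with the other 5 arrays between -0.10 and -0.01. The ATPases deviated by -0.33 in knockout 66, the base assembly chaperones by -0.34 and the lid by -0.10. These values rest on the brightest probe set of each gene. On the second probe set of Psmd9, one of the chaperones, knockout 66 was the highest array (166.8). The ATPase Psmc4 was less spread on its second probe set. Knockout 66 was the lowest array for 10 of the 20 genes of the regulatory particle and for 4 of the 15 core genes, against 24.9% of all genes. A low value in knockout 66 was not particular to the regulatory particle. In that array the 4 core assembly chaperones deviated by -0.20 and the 2 genes that are no subunits by -0.46. The 6 erythroid genes deviated by -0.52. Above 0 were the 8 endothelial genes (0.16), the 8 interferon and antigen presentation genes (0.23) and the mean of all genes (0.01).

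**Figure D4:**
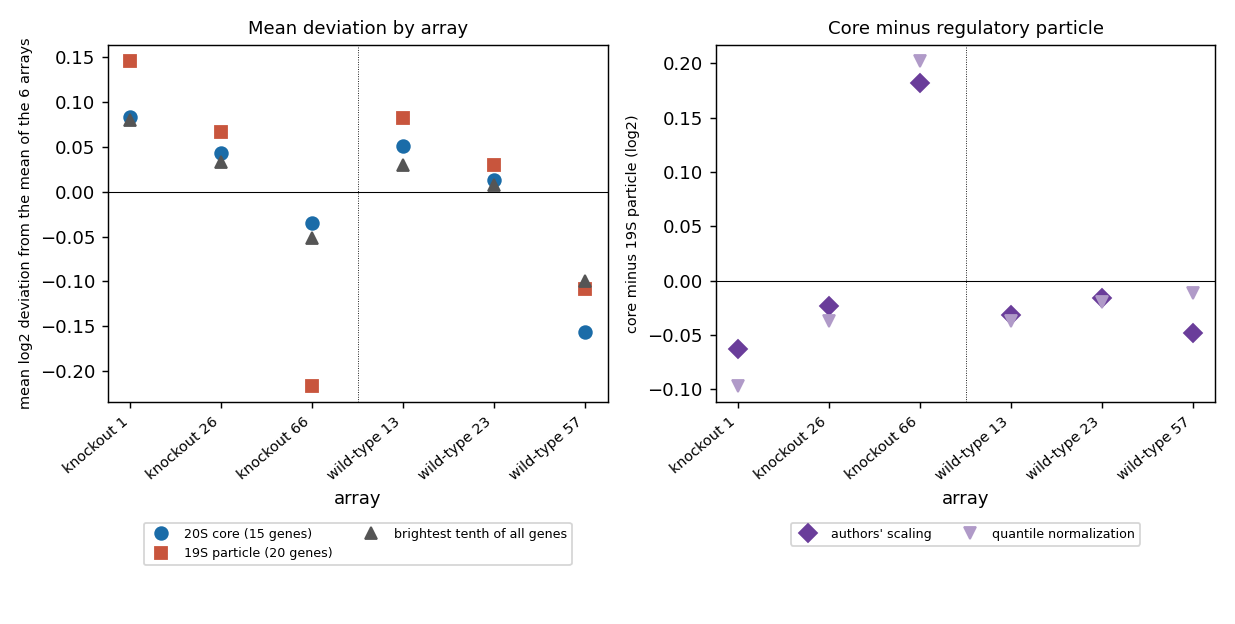
Left, mean log2 deviation from the average of the 6 arrays (y axis) for core genes, genes of the 19S particle and the brightest decile of all genes, by array. Right, core minus 19S particle by array, with the authors' scaling and after quantile normalization: knockout 66 lies at 0.18 and 0.20, and the other 5 arrays lie below 0.

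The subunits varied together over the arrays more than genes at large. The mean pairwise Pearson correlation over the 6 arrays was 0.43 within the core (105 pairs), 0.40 within the regulatory particle (190 pairs) and 0.36 between them (300 pairs). It was 5.7e-05 over all pairs of genes tested and 0.18 within the brightest decile. Without knockout 66 it was 0.58 within the core, 0.30 within the regulatory particle and 0.44 between them, against 0.23 within the brightest decile. These are descriptions over 6 or 5 points that share arrays and scaling. Closest to the mean of the other core and regulatory genes were Psmc3, an ATPase (0.98), Psmd1, a scaffold of the base (0.97), and, outside both particles, the core assembly chaperone Psmg2 (0.99). On the brightest probe set Psmg2 read 1135, 963 and 672 in knockout and 963, 915 and 684 in wild-type, a difference of 0.09, while its other kept probe sets gave -0.04 and 0.21. Farthest were Psme4, at -0.95, whose brightest probe set was highest in knockout 66 and wild-type 57, and Psmd13, at -0.58. Psmc3ip and Psme3ip1, which are no subunits, were at 0.84 and 0.63, so such a correlation was not particular to subunits.

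**Figure D5:**
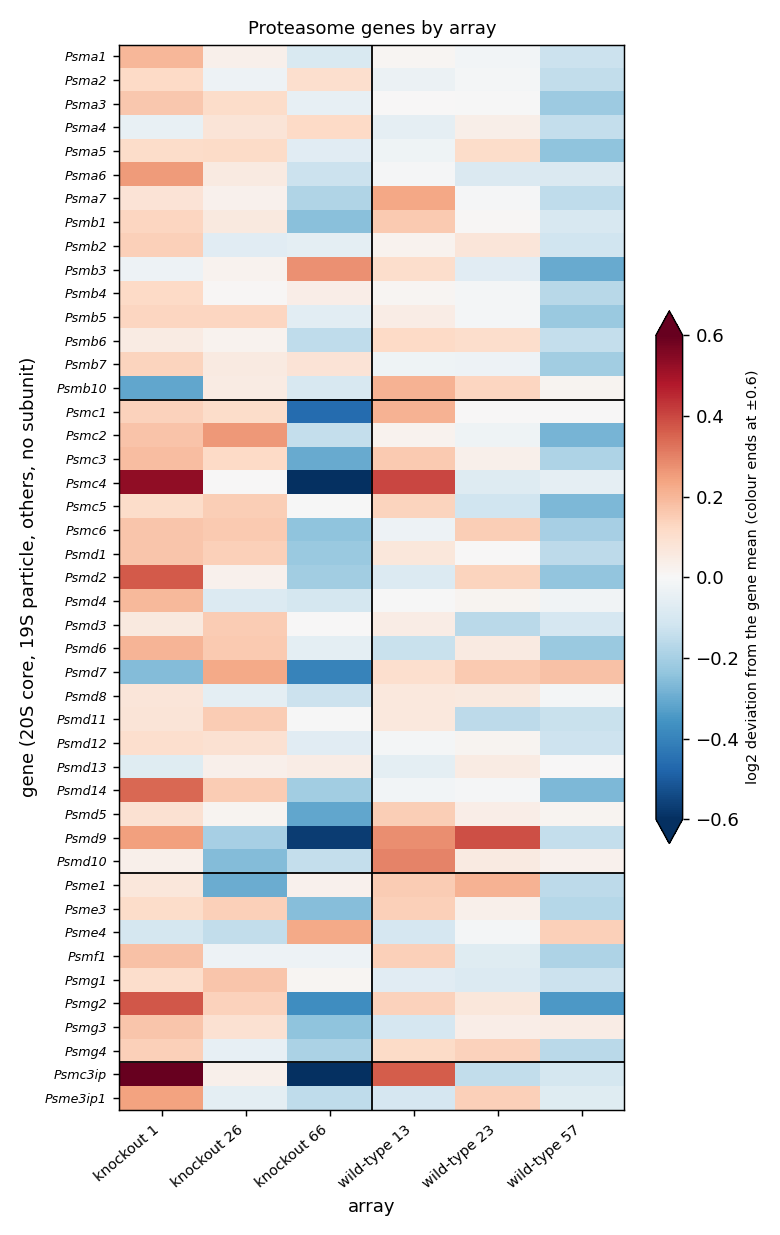
Log2 deviation of each tested gene (rows, grouped as core, 19S particle, others and no subunit) from its mean over the 6 arrays (columns), in colour with ends at ±0.6. Wild-type 57 is the lowest array for 10 of the 15 core genes and knockout 66 for 10 of the 20 genes of the 19S particle.

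Genes that work with the proteasome were counted in the same fit. Of 13 other genes of the complex and its control, 11 were above 0, at a median of 0.08, and 0 passed. Ube3c, a ubiquitin ligase bound to the proteasome, read 275, 331 and 387 in knockout 1, 26 and 66, against 231, 274.0 and 269.9 in wild-type 13, 23 and 57 (0.33 ± 0.18). Every knockout array of Ube3c lay above every wild-type array, as in 5.4% of all genes. Uchl5, a deubiquitinase of the 19S base, gave 0.30 ± 0.16, and its genotypes overlapped. Nfe2l1, the factor whose element is marked in the promoters, read 551, 591 and 566.5 in knockout, against 561, 474 and 538 in wild-type (0.12 ± 0.13). The core maturation factor Pomp was at 0.0031 and the ubiquitin receptor subunit Sem1 at -0.05. Of 18 genes of ubiquitin supply and substrate delivery, 13 were above 0, at a median of 0.02, and 0 passed. Sqstm1, an adaptor that carries ubiquitinated cargo to autophagy, read 671.5, 646 and 886.5 in knockout, against 936, 913.5 and 871 in wild-type (-0.31 ± 0.14, unadjusted p = 0.0535, adjusted p = 0.974 in limma). Nploc4, a cofactor of the segregase Vcp, gave 0.28 ± 0.17.

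Beside the blood and immune list at -0.22, median log2 differences of marker lists were 0.06 over 6 erythroid genes, 0.03 over 8 endothelial genes, -0.0038 over 7 epicardial genes and -0.02 over the 12 cardiomyocyte genes, with 0 of each past an adjusted p of 0.05 in limma. At an unadjusted p under 0.05 there was 1 erythroid gene (Hbb-y, an embryonic globin, 0.26 ± 0.10), 1 epicardial gene (Krt8, a keratin, 0.80 ± 0.18) and 1 cardiomyocyte gene (Myl2, 0.23 ± 0.10). Over all genes tested, 4.69% had such a p. Krt8 had an adjusted p of 0.742 in limma, and its knockout arrays all lay above its wild-type arrays, as in 5.4% of all genes. The mean over the 7 epicardial genes deviated by 0.11, 0.08 and -0.03 in knockout 1, 26 and 66, against -0.05, -0.03 and -0.09 in wild-type 13, 23 and 57, without overlap. That mean includes Krt8 at 0.80, while 4 of the 7 genes had a log2 difference below 0. The 5 blood and immune genes deviated by -0.03, -0.02 and -0.24 in the knockout arrays, against 0.02, 0.17 and 0.10 in the wild-type arrays, also without overlap. Among these 5, Lyz2, a lysozyme of macrophages, was at -0.25 ± 0.16 and Laptm5, a lysosomal protein of blood cells, at -0.58 ± 0.39. Ptprc, the 1 gene of the 5 above 0, was at 0.14 ± 0.26. Listed markers below the filter went both ways on the log2 scale. Tyrobp, Cd52, Itgam and Cx3cr1 were above 0, and Coro1a, Fcer1g and Cd68 were below 0. Among endothelial genes, Pecam1 was at -0.28 ± 0.22 and Cdh5 at 0.27 ± 0.24, both junction proteins. The erythroid genes deviated most between single arrays, by 0.69, -0.09 and -0.52 in knockout 1, 26 and 66, against 0.09, -0.43 and 0.26 in wild-type 13, 23 and 57. Knockout 1 and 66, the extremes of the erythroid list, were also the extremes of the regulatory particle. The wild-type arrays did not keep that order. There the regulatory particle deviated by 0.08, 0.03 and -0.11 in wild-type 13, 23 and 57, lowest where the erythroid list was highest. The part of blood content in the regulatory particle was not tested.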

How the data were processed

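Ventricle RNA of 6 embryonic samples was amplified from 500 ng and hybridised to 1-colour Affymetrix mouse genome arrays, per the labels. The authors deposited linear intensities per probe set. The submitters' processing notes name GCOS and MAS5, without versions or settings. Each array has a trimmed mean of 250, so signals are relative to the rest of an array. Precision is limited by having 3 arrays per genotype. Here, intensities were transformed as log2(intensity + 16), and fold changes on that scale understate the change of dim genes. The 22518 probe sets with a mean above the median of the non-control probe sets were fitted with limma 3.58.1 under R 4.3.3 (lmFit, eBayes with a trend, two-sided), after a test on simulated data. Genes took their brightest kept probe set, and Benjamini-Hochberg adjustment ran over 11661 genes. Gene symbols were those of the platform annotation. Values by array are given for the protease and immune subunits, Psmd14, Psmd4, the 2 genes of smallest p among alpha, beta, ATPase, non-ATPase and other members, and those without overlap, and added for others singled out after their values were seen, such as Psmc4 and the base assembly chaperones. The members, lists and rules were chosen with earlier results of these data known, so no p was adjusted over the lists, and scores over members carry no test. Figures used Matplotlib 3.10.9. Promoters were searched for 3 motifs, of which 1 is not reported here.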

Additional observations from a re-analysis of the deposited data

How the results depend on the processing

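Results were recomputed under 17 alternatives: pseudocounts of 1 and 64, other filters on dim probe sets, quantile normalization, centring by array median, eBayes untrended or robust, array quality weights, cross-matching probe sets removed, averaged probe sets, and single arrays left out. In all 17, 0 proteasome genes passed an adjusted p of 0.05 in limma, and at an unadjusted p under 0.05 there were up to 6, with array quality weights. The share of all genes at that unadjusted p is not given here for that setting, so the count of 6 has no background beside it. Over all genes, 8 passed with array quality weights, among them Cct3 and Krt8, which did not pass in the results above. With an array left out, between 0 and 2 genes passed (2 without knockout 1, 1 without knockout 66). The median of the core was between 0.05 and 0.13 with an array left out. With averaged probe sets the core median was 0.02 and the regulatory median 0.05, which turns their order (0.11 and 0.03 as reported), and with quantile normalization they were 0.06 and 0.02. That of the regulatory particle was between -0.022 (without knockout 1) and 0.16 (without knockout 66), and it was -0.0043 without knockout 26 and -0.0044 without wild-type 57. Core minus regulatory particle was between -0.011 (without knockout 66) and 0.11 (without knockout 1), and 0.02 with array quality weights. Psmd4 was at -0.033 with array quality weights, at -0.015 with averaged probe sets and between -0.091 and 0.059 with an array left out, among them -0.0033 without wild-type 57. Psmb6 was between -0.14 and 0.0080 with an array left out. With an array left out, log2 differences were between 0.09 and 0.18 for Psma2, 0.07 and 0.21 for Psma3, 0.05 and 0.19 for Psmb5, 0.12 and 0.21 for Psmb7, -0.32 and -0.14 for Psmb10, 0.10 and 0.31 for Psmc2, 0.08 and 0.28 for Psmc5, 0.14 and 0.28 for Psmd6, 0.07 and 0.35 for Psmd14, -0.47 and -0.16 for Psmd7, -0.25 and -0.02 for Psme1, and 0.15 and 0.23 for Psmg1. With array quality weights Psme1 was at -0.31 (unadjusted p = 0.0231, adjusted p = 0.336 in limma), Psmd7 at -0.07 and Psma2 at 0.06. Psma3 was at 0.0041 and Psmd6 at 0.12 with averaged probe sets, and Psmc2 at 0.09 without cross-matching probe sets. Of 238 values of 14 single genes, 5, those of Psmd4 and Psmb6 given above, changed sign, and the causes were not tested. No paired analysis was possible because the genotypes share no replicate numbers.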
